A study of Mus musculus with 13 samples.

Results

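The 40 genes described here encode proteins of the cell division cycle, and they were measured in microglia, the resident macrophages of the brain. They were chosen by gene symbol from a written list, and all 40 were found among the 19737 genes of the deposited table. Each was listed above 0 in every one of the 13 libraries, so none was lost to a filter on low values. RNA came from 4 groups of mice. Wild type (WT) mice given AAV PHP.eB-EGFP, an adeno-associated viral vector for the fluorescent protein EGFP whose capsid reaches the brain, gave 3 libraries. Mice of the 5xFAD line given the same vector gave 2. The line models Alzheimer's disease through mutant human amyloid precursor protein and presenilin 1, which transgenes express in neurons. A further 4 libraries came from 5xFAD mice that received an AAV PHP.eB vector carrying circPOLR2A, a circular RNA (circRNA), and 4 came from 5xFAD mice with a knockout of PKR, a kinase that is activated by double-stranded RNA. The circPOLR2A label carries a different pair of numbers in each of its 4 libraries, and these were grouped by title as circRNA. No vector is named for the PKR knockout (PKR KO) mice, so whether they received one is not given in the sources used here. Separate library names exist for the PKR KO group alone, so a batch of its own and the knockout cannot be told apart. The labels give no age, sex or cell isolation method, and nothing states that each library came from a different animal, so the p-values measure the spread between these libraries, which may be technical.

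Cells divide in ordered steps. D-type cyclins with Cdk4 and Cdk6, then cyclin E with Cdk2, inactivate the retinoblastoma protein and free E2F factors, which switch on the genes for DNA synthesis. The Mcm2 to Mcm7 proteins form the helicase that opens DNA at origins, Pcna is the sliding clamp of the DNA polymerases, and thymidylate synthase and ribonucleotide reductase supply nucleotides. Cyclins A and B with Cdk1 then drive entry into mitosis, in which aurora and polo kinases, the spindle checkpoint, kinetochore proteins and motor proteins separate the chromosomes. In adult brain, microglia renew slowly by division, and in mice with amyloid plaques they are known to divide near the plaques.

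Promoter sequences are shown for 5 members because genes of the late and early cycle are known to carry different promoter elements. The late genes carry the cell cycle genes homology region (CHR), bound by the MuvB complexes, and CCAAT boxes, bound by NF-Y. Many genes of DNA replication carry E2F sites. Windows of 300 bases, from 250 before to 50 after each RefSeq start (GRCm38.p6), matched 32 of the 40 members. The members with no entry were Ccnd1, Ccnd2, Ccne2, Mcm4, Ccna2, Foxm1, Aurkb and Tpx2. Capitals mark 3 kinds of match, searched on both strands, so that a match can also appear as its reverse complement. CHR letters were TTTGAA or the variant form TTCGAA. The CCAAT box was searched by the letters of its name. E2F letters were any of TTTCCCGC, TTTCGCGC, TTTGCCGC and TTTGGCGC. Neighbouring E2F matches overlap in Mcm5 and Mcm6 and form 1 run of capitals. All sequences are written 5′ to 3′ on the strand of the gene. The Cdk1 stretch lies on the minus strand of chromosome 10 from 69352939 to 69353132, that of Top2a on the minus strand of chromosome 11 from 99024190 to 99024429, and that of Mki67 on the minus strand of chromosome 7 from 135716459 to 135716579. The Mcm5 stretch lies on the plus strand of chromosome 8 from 75109339 to 75109508, and that of Mcm6 on the minus strand of chromosome 1 from 128359706 to 128359835.
Cdk1: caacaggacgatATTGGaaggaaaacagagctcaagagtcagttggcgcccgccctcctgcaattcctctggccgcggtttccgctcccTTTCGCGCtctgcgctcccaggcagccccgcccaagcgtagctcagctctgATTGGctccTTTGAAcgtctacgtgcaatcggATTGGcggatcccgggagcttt
Top2a: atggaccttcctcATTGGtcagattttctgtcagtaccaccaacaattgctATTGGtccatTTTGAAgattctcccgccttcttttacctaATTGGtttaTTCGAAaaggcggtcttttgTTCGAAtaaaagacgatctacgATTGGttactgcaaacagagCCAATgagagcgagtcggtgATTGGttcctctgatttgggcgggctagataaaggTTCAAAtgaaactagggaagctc
Mki67: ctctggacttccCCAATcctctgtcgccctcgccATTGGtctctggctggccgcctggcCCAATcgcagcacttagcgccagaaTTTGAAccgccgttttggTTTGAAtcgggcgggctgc
Mcm5: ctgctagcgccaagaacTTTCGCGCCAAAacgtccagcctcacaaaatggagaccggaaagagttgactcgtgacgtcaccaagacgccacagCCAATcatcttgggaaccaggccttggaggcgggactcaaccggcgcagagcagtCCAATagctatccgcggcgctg
Mcm6: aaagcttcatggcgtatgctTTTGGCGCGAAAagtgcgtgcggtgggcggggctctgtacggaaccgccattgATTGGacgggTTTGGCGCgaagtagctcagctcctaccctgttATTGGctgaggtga

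Cdk1, Top2a and Mki67 each held CHR and CCAAT letters, and Cdk1 also held an E2F match. Mcm5 and Mcm6 held E2F and CCAAT letters and no CHR in the window. Among the 17 members of G2/M, mitosis and proliferation marks with a window, 77.8% of 18 windows held a CHR match and 88.9% held CCAAT. Over all 32851 RefSeq windows of this length these shares were 19.2% and 37.4%. E2F letters were in 66.7% of the 6 windows of 5 Mcm genes and in 5.56% of the 18 windows of the late genes, against 2.26% of all windows. Of these 6 Mcm windows 100% held CCAAT, and 33.3%, those of Mcm2 and one of Mcm7, held a CHR match. Of the other 10 members, with 11 windows, none held a CHR match, 45.5% of windows held CCAAT and 9.09% held E2F letters. Of the genes of DNA synthesis with a window, Mcm2, Pcna, Rrm1, Rrm2 and Tyms had no E2F match. A match of letters is a description of the sequence, and binding was not measured.

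Depth, recovered from the steps in the FPKM values (sequenced fragments divided by gene length and library size), was 45.2 to 70.0 (in units of 1000000 fragments) in a library. The members lay low: 25 of 40 had a mean under 1 FPKM over the 13 libraries, and 33.1% of the 520 member values rested on under 100 fragments, where counting error alone is 10% or more. The 7 microglial markers (P2ry12, Tmem119, Cx3cr1, Csf1r, Aif1, Sall1 and C1qa) summed to 1869 to 3228 FPKM, which matches the label. Wild type replicate 3 stood apart: its oligodendrocyte markers summed to 1534 FPKM, against 332 and 374 in the other wild type libraries, and its microglial markers to 1869, against 2932 and 2984. Oligodendrocyte markers summed to 597 and 641 FPKM in 5xFAD EGFP, 213 to 359 in PKR KO, and 702, 290, 281 and 748 with circRNA. Neuron markers were at 17.5 and 15.1 FPKM in 5xFAD EGFP and 6.57 to 11.3 in PKR KO. Their circRNA range was 4.66 to 15.1 and that of wild type 5.71 to 20.7. Summed markers of border macrophages were lower in every 5xFAD library (13.3 to 24.3 FPKM) than in wild type (36.0 to 57.4), and mural markers also were lower in 5xFAD EGFP (13.4 and 19.6, against 34.3 to 79.5). Endothelial markers (29.6 and 21.7 FPKM, against 43.7 to 103) and monocyte markers (0.630 and 0.470, against 0.767 to 1.07) were likewise lower in 5xFAD EGFP than in every wild type library. In PKR KO the same 3 lists lay below wild type without overlap, at 17.4 to 30.9 FPKM (mural), 30.2 to 41.5 (endothelial) and 0.526 to 0.549 (monocyte), while with circRNA all 3 overlapped wild type. PKR KO replicate 4 stood apart in markers of neutrophils and myeloid precursors, at 24.3 FPKM against 0.891 to 4.55 in the other PKR KO libraries and 4.27 to 9.06 in wild type and 5xFAD EGFP, with Mpo and Elane at 0 in some libraries. Of cell types that can divide, 4 oligodendrocyte precursor markers, none at 0, summed to 1.91 to 4.58 FPKM in wild type and 3.79 to 6.01 in the 5xFAD libraries. The 5 T cell markers summed to 0.0767 to 0.197 FPKM in wild type and 0.194 to 0.490 in the 5xFAD libraries, with Cd3d, Cd3g and Cd2 at 0 in some. The 5 neural progenitor markers summed to 3.07 to 7.48 and 3.04 to 5.66 FPKM, with Eomes and Neurod1 at 0 in some. The part of these other cells in the member values was not tested. Eif2ak2, the gene of PKR, was at 3.35, 4.61, 3.31 and 4.16 FPKM in the PKR KO libraries, 6.49 and 6.59 in 5xFAD EGFP, 7.37 to 8.11 with circRNA and 4.14 to 5.23 in wild type. The knockout libraries were thus below every other 5xFAD library but overlapped wild type, and which exons the allele removes is not given in the sources used here.

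In 5xFAD EGFP microglia, 9 of the 21 genes of G2/M, mitosis and proliferation marks rose against wild type, the other 12 did not pass the test, and no D-type cyclin passed. With limma on log2(FPKM + 0.1) and Benjamini-Hochberg adjustment over the 18291 genes tested, 11 of the 40 members passed an adjusted p of 0.05, and all 11 were higher in 5xFAD EGFP; over all genes tested, 5.05% were called higher and 5.19% lower. The 11 were Cdk1, Top2a, Mki67, Cenpe, Birc5, Aurka, Bub1, Mcm5, Nusap1, E2f1 and Bub1b. The median log2 change was 0.44 over the 40 members and -0.05 over all genes, and 34 members had a positive change. In 24 members both 5xFAD EGFP libraries lay above all 3 wild type libraries, which was so for 12.7% of all genes, and in 1, Ccnd3, both lay below, as for 22.5% of all genes. By role, the calls were 2 of 2 proliferation marks, 1 of 5 G2/M regulators, 4 of 7 mitotic kinases and checkpoint genes, 2 of 7 kinetochore and spindle genes, 1 of 7 replication genes, 1 of 4 G1/S genes, 0 of 5 D-type cyclins and partner kinases, and 0 of 3 nucleotide synthesis genes. In RNA from a population of cells, more cells making a transcript and more of it in each cell cannot be told apart.

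The calls leaned on the pair of 5xFAD EGFP libraries. Without replicate 2 of that group, 2 members passed (Cdk1 and Top2a), and without replicate 1, 7 passed (these and Birc5, Bub1, Cenpe, Mcm5 and Mki67). Over all genes the calls fell as well, from 924 higher and 949 lower to 510 and 64 without replicate 2 and to 446 and 231 without replicate 1. Without wild type replicate 3, the library that stood apart, 10 passed. With every library rescaled to the same summed FPKM, 10 members were higher and 1, Ccnd2, was lower; this scaling moved the median of all genes from -0.05 to -0.19 and the calls over all genes to 819 higher and 3386 lower.

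**Figure D1:**
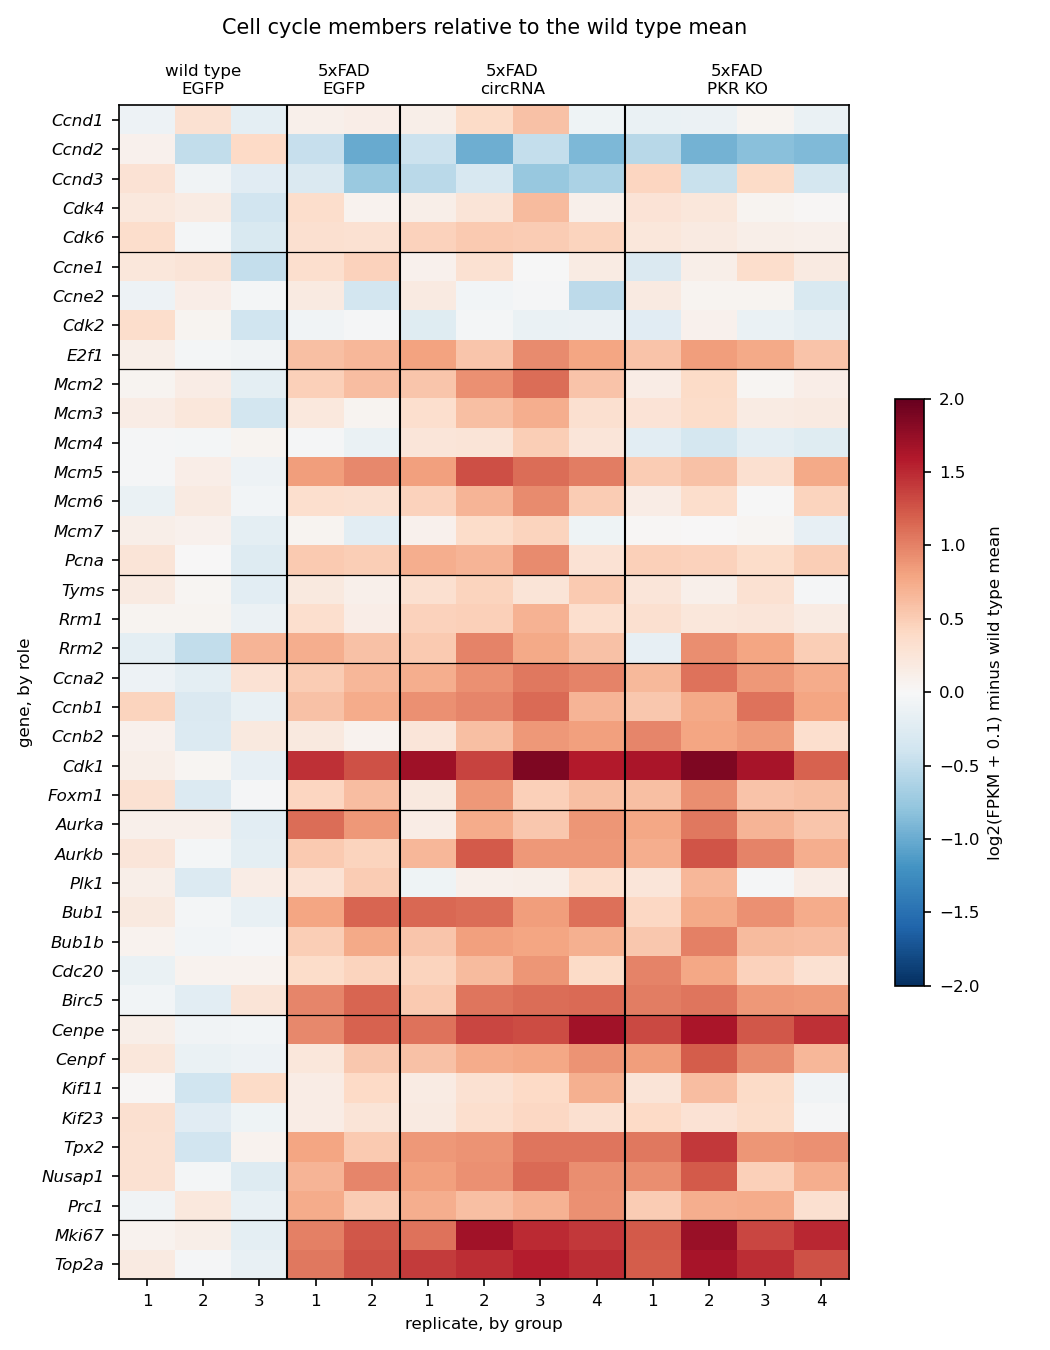
Each row is a gene, grouped by role from the D-type cyclins at the top to the proliferation marks at the bottom, and each column is a library; colour is log2(FPKM + 0.1) minus the mean of the 3 wild type libraries, on a scale from -2 to 2. The Cdk1, Cenpe, Mki67 and Top2a rows are red in all 10 5xFAD libraries, and the Ccnd2 row is blue in them.

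Both proliferation marks rose in 5xFAD EGFP. Mki67 encodes Ki-67, a protein that coats mitotic chromosomes and is present in dividing cells. It was 0.867, 0.890 and 0.705 FPKM in wild type, 1.75 and 2.06 in 5xFAD EGFP, 1.85, 2.83, 2.47 and 2.35 with circRNA, and 2.05, 2.94, 2.21 and 2.50 in PKR KO. Every 5xFAD library lay above every wild type library, and the 3 groups of 5xFAD libraries overlapped each other. The log2 change from wild type to 5xFAD EGFP was 1.12, SE 0.19, limma adjusted p = 0.00451. Top2a encodes topoisomerase II alpha, which untangles DNA before chromosomes part. It was 0.430, 0.356 and 0.319 FPKM in wild type, 0.867 and 1.03 in 5xFAD EGFP, 1.13, 1.19, 1.29 and 1.19 with circRNA, and 0.984, 1.37, 1.20 and 1.03 in PKR KO. Again no 5xFAD library reached down to the wild type range. The log2 change in 5xFAD EGFP was 1.16, SE 0.17, limma adjusted p = 0.00195, and the mean went from 0.368 ± 0.0565 FPKM in wild type (SD, n = 3) to 0.947 ± 0.113 (SD, n = 2) in 5xFAD EGFP, 2.57-fold higher. The Top2a gene lies on chromosome 11, 98992943 to 99024189 (GRCm38, minus strand), and Mki67 on chromosome 7, 135689784 to 135716361 (minus strand).

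Of the G2/M regulators, Cdk1 passed the test in 5xFAD EGFP and the cyclins did not. Cdk1, the kinase that starts mitosis, lies on chromosome 10, 69335146 to 69352938 (minus strand). It was 0.184, 0.170 and 0.133 FPKM in wild type, 0.618 and 0.532 in 5xFAD EGFP, 0.746, 0.564, 0.857 and 0.687 with circRNA, and 0.709, 0.853, 0.721 and 0.489 in PKR KO. The wild type libraries reached at most 0.184 FPKM on 33 to 43 fragments, and the 5xFAD libraries were at 0.489 or above on 144 fragments or more. The log2 change was 1.36, SE 0.22, limma adjusted p = 0.00340, a 3.54-fold ratio of means, the largest ratio among the 40 members in this comparison. Ccna2, cyclin A2, was 0.264, 0.241 and 0.379 FPKM in wild type, 0.453 and 0.522 in 5xFAD EGFP, 0.548, 0.635, 0.707 and 0.676 with circRNA, and 0.514, 0.733, 0.614 and 0.551 in PKR KO. All 5xFAD values were above wild type, with a log2 change in 5xFAD EGFP of 0.59, SE 0.20, limma adjusted p = 0.0891. Ccnb1, cyclin B1, was 0.115, 0.0298 and 0.0423 FPKM in wild type, 0.137 and 0.164 in 5xFAD EGFP, 0.198, 0.211, 0.247 and 0.154 with circRNA, and 0.131, 0.169, 0.235 and 0.174 in PKR KO. Wild type replicate 1 came near the 5xFAD EGFP libraries, and the wild type values rested on 6 to 23 fragments (log2 change 0.66, SE 0.22, limma adjusted p = 0.0847). Ccnb2, cyclin B2, was 0.553, 0.411 and 0.608 FPKM in wild type, 0.610 and 0.547 in 5xFAD EGFP, 0.630, 0.840, 1.03 and 0.992 with circRNA, and 1.12, 0.971, 1.02 and 0.682 in PKR KO. Wild type and 5xFAD EGFP overlapped (log2 change 0.13, SE 0.25, limma adjusted p = 0.801). Foxm1, a transcription factor of the G2/M genes, was 0.441, 0.262 and 0.332 FPKM in wild type, 0.493 and 0.571 in 5xFAD EGFP, 0.405, 0.698, 0.511 and 0.563 with circRNA, and 0.567, 0.737, 0.550 and 0.563 in PKR KO. The 5xFAD EGFP values lay above wild type by a margin that missed the threshold (log2 change 0.52, SE 0.23, limma adjusted p = 0.188). Ccnb1 and Ccnb2, like Pcna, Ccnd3 and Tyms, have named pseudogenes in the annotation, and how fragments shared with them were counted is not given in the sources used here.

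**Figure D2:**
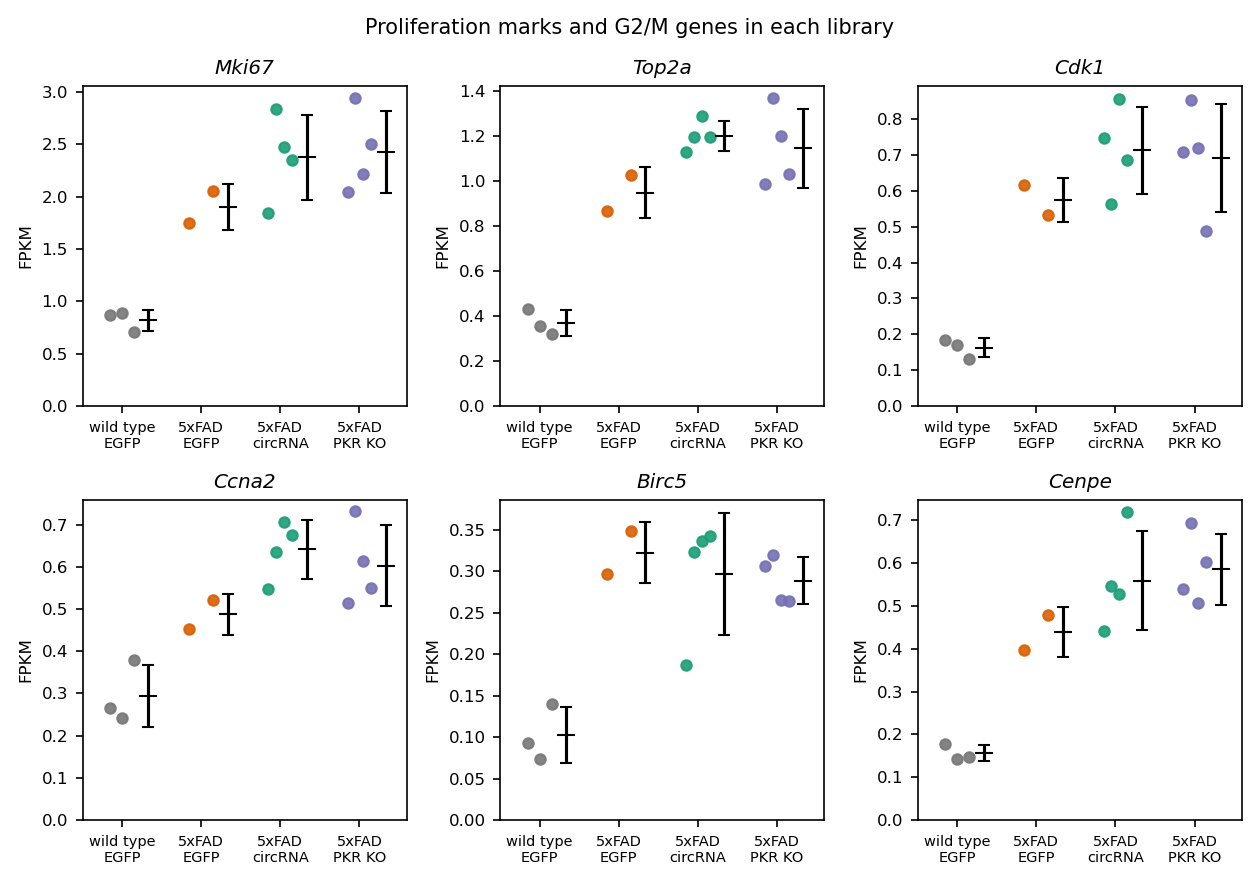
FPKM (linear axis from 0) of 6 genes in each library; each point is a library, and the bar beside each group is its mean ± SD. For Mki67, Top2a, Cdk1, Ccna2, Birc5 and Cenpe all 10 5xFAD libraries lie above the 3 wild type libraries, and the 3 groups of 5xFAD libraries overlap or lie close together.

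Among the mitotic kinases and checkpoint genes, Birc5, Aurka, Bub1 and Bub1b rose in 5xFAD EGFP. Birc5 encodes survivin, a subunit of the chromosomal passenger complex. It was 0.0933, 0.0740 and 0.140 FPKM in wild type, 0.297 and 0.348 in 5xFAD EGFP, 0.187, 0.322, 0.336 and 0.342 with circRNA, and 0.306, 0.319, 0.266 and 0.264 in PKR KO. All 5xFAD libraries were above wild type, and circRNA replicate 1 was the lowest of them. The log2 change was 1.07, SE 0.21, limma adjusted p = 0.00854. Aurka, the aurora kinase of the spindle poles, was 0.268, 0.265 and 0.196 FPKM in wild type, 0.643 and 0.525 in 5xFAD EGFP, 0.277, 0.471, 0.393 and 0.530 with circRNA, and 0.486, 0.610, 0.449 and 0.399 in PKR KO. Its 5xFAD EGFP libraries were both above wild type (log2 change 1.00, SE 0.24, limma adjusted p = 0.0222), the call was lost without either of them and under the replicate block, and circRNA replicate 1 was close to the wild type range. Bub1, a checkpoint kinase at kinetochores, was 0.126, 0.0915 and 0.0774 FPKM in wild type, 0.240 and 0.343 in 5xFAD EGFP, 0.337, 0.330, 0.254 and 0.322 with circRNA, and 0.163, 0.233, 0.271 and 0.228 in PKR KO. Wild type values rested on 17 to 26 fragments, and no 5xFAD library fell into their range (log2 change 0.98, SE 0.19, limma adjusted p = 0.00818). Bub1b, the checkpoint protein BubR1, was 0.436, 0.393 and 0.403 FPKM in wild type, 0.617 and 0.765 in 5xFAD EGFP, 0.651, 0.801, 0.782 and 0.733 with circRNA, and 0.644, 0.926, 0.689 and 0.683 in PKR KO. The groups did not overlap and the log2 change was 0.63, SE 0.18, limma adjusted p = 0.0480, a call that was lost when any 1 of the 5 wild type and 5xFAD EGFP libraries was left out, and under 4 of 6 other settings.

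The other 3 genes of that role did not pass in 5xFAD EGFP. Aurkb, the kinase of the chromosomal passenger complex, was 0.280, 0.214 and 0.182 FPKM in wild type, 0.362 and 0.340 in 5xFAD EGFP, 0.409, 0.655, 0.488 and 0.489 with circRNA, and 0.435, 0.669, 0.539 and 0.432 in PKR KO. Its 5xFAD EGFP pair lay between the wild type libraries and all libraries of the other 5xFAD groups (log2 change 0.48, SE 0.22, limma adjusted p = 0.209). Cdc20, which activates the anaphase-promoting complex, was 0.623, 0.730 and 0.732 FPKM in wild type, 0.921 and 0.975 in 5xFAD EGFP, 0.986, 1.12, 1.36 and 0.934 with circRNA, and 1.48, 1.25, 0.991 and 0.882 in PKR KO. All 5xFAD values were above wild type (log2 change 0.40, SE 0.22, limma adjusted p = 0.293). Plk1, the polo kinase, was 0.655, 0.477 and 0.676 FPKM in wild type, 0.748 and 0.895 in 5xFAD EGFP, 0.558, 0.645, 0.654 and 0.776 with circRNA, and 0.725, 1.01, 0.583 and 0.675 in PKR KO. Wild type overlapped the circRNA and PKR KO groups (log2 change 0.40, SE 0.23, limma adjusted p = 0.316).

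Of the kinetochore, spindle and midzone genes, Cenpe and Nusap1 rose. Cenpe, a kinetochore motor, was 0.177, 0.144 and 0.147 FPKM in wild type, 0.397 and 0.480 in 5xFAD EGFP, 0.442, 0.548, 0.529 and 0.718 with circRNA, and 0.539, 0.695, 0.506 and 0.603 in PKR KO. The 3 wild type libraries lay within 0.144 to 0.177 FPKM and all 5xFAD libraries were at 0.397 or above (log2 change 1.07, SE 0.20, limma adjusted p = 0.00678). Nusap1, a spindle microtubule binder, was 0.193, 0.129 and 0.0976 FPKM in wild type, 0.281 and 0.363 in 5xFAD EGFP, 0.319, 0.345, 0.420 and 0.350 with circRNA, and 0.350, 0.454, 0.230 and 0.293 in PKR KO. The groups did not overlap (log2 change 0.83, SE 0.23, limma adjusted p = 0.0438), but the call was lost on leaving out any 1 library of these groups other than wild type replicate 1, and under 4 of 6 other settings. Prc1, which bundles microtubules at the midzone, was 0.170, 0.230 and 0.157 FPKM in wild type, 0.373 and 0.303 in 5xFAD EGFP, 0.370, 0.332, 0.358 and 0.436 with circRNA, and 0.303, 0.372, 0.376 and 0.254 in PKR KO. The 5xFAD values were all above wild type, and in 5xFAD EGFP the change just missed the threshold (log2 change 0.62, SE 0.18, limma adjusted p = 0.0543). It passed with a pseudocount of 1, with median-ratio scaling and without wild type replicate 2. It also passed without circRNA replicate 4 or PKR KO replicate 4, which enter the shared error. Tpx2, an activator of Aurka, was 0.339, 0.175 and 0.275 FPKM in wild type, 0.520 and 0.415 in 5xFAD EGFP, 0.548, 0.562, 0.653 and 0.649 with circRNA, and 0.643, 0.855, 0.561 and 0.572 in PKR KO. Here too wild type was lowest throughout (log2 change 0.66, SE 0.23, limma adjusted p = 0.0947). Cenpf, a large kinetochore protein, was 0.247, 0.171 and 0.177 FPKM in wild type, 0.246 and 0.332 in 5xFAD EGFP, 0.347, 0.397, 0.409 and 0.453 with circRNA, and 0.430, 0.589, 0.468 and 0.369 in PKR KO. Wild type replicate 1 overlapped 5xFAD EGFP (log2 change 0.38, SE 0.20, limma adjusted p = 0.269). The motor genes Kif11 (0.216 to 0.580 FPKM over the 13 libraries) and Kif23 (0.141 to 0.277) passed in no comparison of the reported fit. Kif23 passed as higher in circRNA against wild type without wild type replicate 1. In the annotation 13 of the 40 members share exon bases with a gene on the opposite strand, and the strand setting of the counting is not given in the sources used here. Of the late genes these are Ccna2 (with Exosc9), Cdc20, Plk1, Nusap1 and Prc1, and the others are Ccne2, Cdk2, Mcm7 and the 5 D-type cyclins and partner kinases. Foxm1, Top2a and Mcm7 share exon bases with genes on their own strand.

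The cyclins and kinases of G1 were abundant per length beside the mitotic genes, and none of them passed in 5xFAD EGFP. Ccnd1, cyclin D1, was 10.0, 13.3 and 9.37 FPKM in wild type, 11.5 and 11.8 in 5xFAD EGFP, 11.7, 14.0, 16.3 and 10.1 with circRNA, and 9.80, 9.94, 11.2 and 9.82 in PKR KO. All groups overlapped except that the PKR KO libraries lay below both 5xFAD EGFP libraries. Ccnd2, cyclin D2, was 3.02, 1.97 and 3.78 FPKM in wild type, 2.02 and 1.35 in 5xFAD EGFP, 2.07, 1.39, 2.01 and 1.46 with circRNA, and 1.89, 1.42, 1.53 and 1.49 in PKR KO. Wild type replicates 1 and 3 were above every 5xFAD library, while replicate 2 overlapped them. The log2 change in 5xFAD EGFP was -0.74, SE 0.27, limma adjusted p = 0.112, and that in PKR KO against wild type passed the test (log2 change -0.81, SE 0.23, limma adjusted p = 0.0194). With circRNA against wild type it missed the threshold (log2 change -0.69, SE 0.23, limma adjusted p = 0.0527) but passed under 5 of the 7 other settings and without wild type replicate 2. Ccnd3, cyclin D3, was 8.52, 6.57 and 5.92 FPKM in wild type, 5.64 and 4.08 in 5xFAD EGFP, 4.74, 5.52, 4.07 and 4.45 with circRNA, and 9.37, 5.04, 9.04 and 5.40 in PKR KO. The PKR KO group split, with replicates 1 and 3 above every other library and replicates 2 and 4 among the 5xFAD values. The log2 change in 5xFAD EGFP was -0.52, SE 0.28, limma adjusted p = 0.279. Cdk6, a partner kinase, was 4.90, 3.72 and 3.08 FPKM in wild type, 4.81 and 4.74 in 5xFAD EGFP, 5.28, 5.58, 5.48 and 5.25 with circRNA, and 4.49, 4.35, 4.15 and 4.13 in PKR KO. The circRNA libraries were above all others, and their log2 change from wild type was 0.48, SE 0.12, limma adjusted p = 0.0154, lost when all libraries were rescaled to the same sum. Cdk4 ranged from 5.35 to 10.9 FPKM and passed in no comparison.

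**Figure D3:**
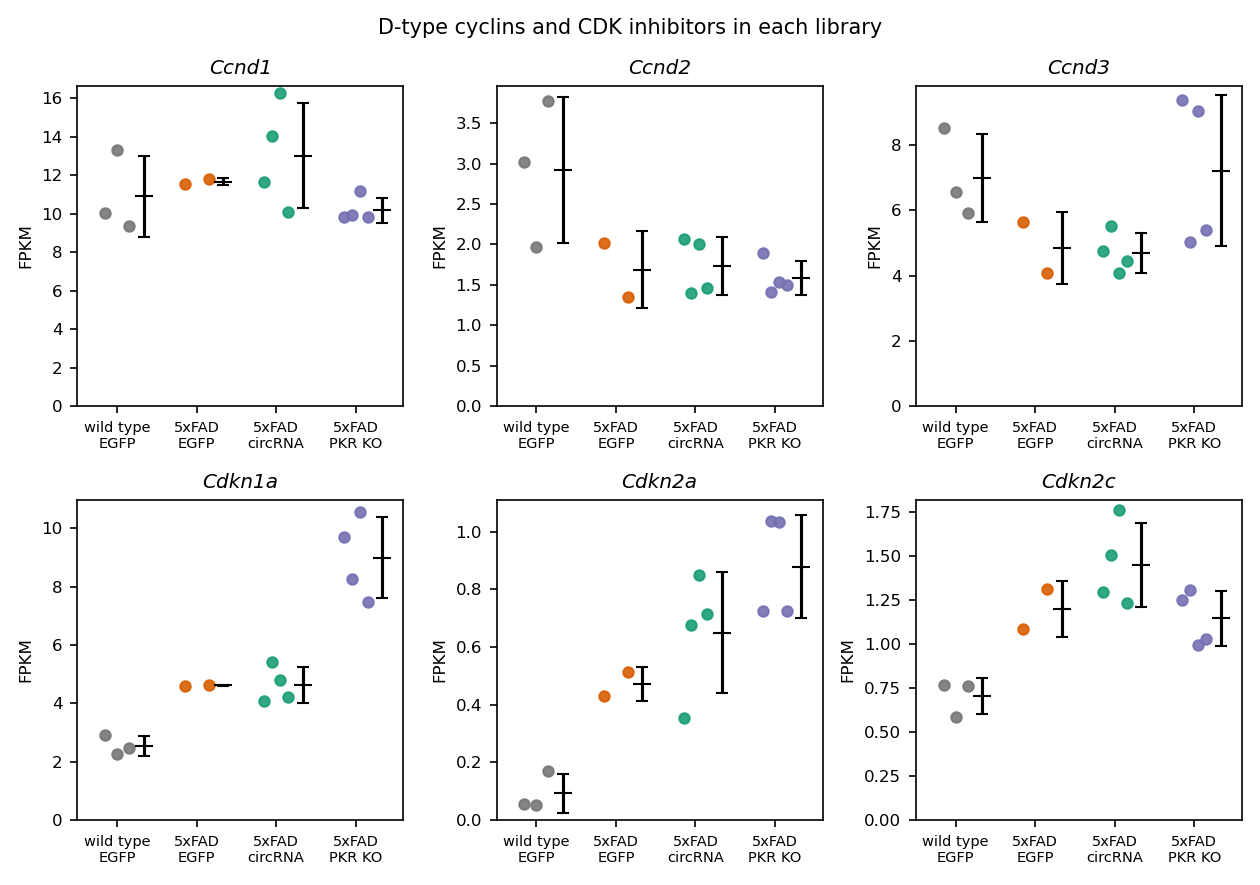
FPKM (linear axis from 0) of the 3 D-type cyclins, upper row, and 3 CDK inhibitors, lower row, in each library; points are libraries and bars are mean ± SD of the group. Ccnd1 overlaps between wild type and the 5xFAD groups, while Cdkn1a, Cdkn2a and Cdkn2c are higher in every 5xFAD library than in wild type, and Cdkn1a is highest in PKR KO (7.47 to 10.6 FPKM).

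At the G1/S step, E2f1 rose in 5xFAD EGFP and the other 3 members did not pass the test. E2f1, an activating E2F factor, was 0.490, 0.426 and 0.415 FPKM in wild type, 0.723 and 0.762 in 5xFAD EGFP, 0.844, 0.696, 0.940 and 0.841 with circRNA, and 0.703, 0.865, 0.813 and 0.705 in PKR KO. Wild type lay within 0.415 to 0.490 FPKM and all 5xFAD libraries at 0.696 or above (log2 change 0.64, SE 0.17, limma adjusted p = 0.0331), and the call was lost without either 5xFAD EGFP library, without wild type replicate 2 and under 2 of 6 other settings. Ccne1, cyclin E1, was 0.135, 0.142 and 0.0447 FPKM in wild type, 0.154 and 0.178 in 5xFAD EGFP, 0.115, 0.149, 0.0997 and 0.126 with circRNA, and 0.0651, 0.118, 0.159 and 0.129 in PKR KO. Both 5xFAD EGFP libraries were above wild type (log2 change 0.40, SE 0.23, limma adjusted p = 0.326), while the other 5xFAD groups overlapped it. Ccne2, cyclin E2, was 0.133, 0.174 and 0.142 FPKM in wild type, 0.182 and 0.0938 in 5xFAD EGFP, 0.182, 0.141, 0.146 and 0.0733 with circRNA, and 0.183, 0.159, 0.158 and 0.103 in PKR KO. Both cyclins were near the counting floor, on 6 to 39 fragments in a library, and passed in no comparison. Cdk2, their partner, ranged from 1.46 to 2.51 FPKM and passed in none.

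Of the replication genes, Mcm5 rose in 5xFAD EGFP. Mcm5 lies on chromosome 8, 75109569 to 75128439 (plus strand), and was 0.976, 1.10 and 0.923 FPKM in wild type, 1.86 and 2.03 in 5xFAD EGFP, 1.83, 2.57, 2.29 and 2.13 with circRNA, and 1.46, 1.55, 1.26 and 1.76 in PKR KO. It was the one helicase subunit above wild type in every 5xFAD library and past the threshold in all 3 5xFAD groups (in PKR KO not after rescaling to the same sum), with a log2 change in 5xFAD EGFP of 0.90, SE 0.16, limma adjusted p = 0.00646. Mcm2 was 0.810, 0.870 and 0.662 FPKM in wild type, 1.11 and 1.24 in 5xFAD EGFP, 1.18, 1.55, 1.81 and 1.20 with circRNA, and 0.872, 1.04, 0.796 and 0.865 in PKR KO. Both 5xFAD EGFP libraries were above wild type, but the change missed the threshold (log2 change 0.54, SE 0.20, limma adjusted p = 0.113). Mcm6 was 1.83, 2.30 and 1.92 FPKM in wild type, 2.56 and 2.53 in 5xFAD EGFP, 2.81, 3.28, 3.96 and 2.88 with circRNA, and 2.23, 2.58, 2.01 and 2.76 in PKR KO. Its 5xFAD EGFP pair was above wild type by a smaller step (log2 change 0.33, SE 0.17, limma adjusted p = 0.270). Mcm3 was 7.14, 7.50 and 4.95 FPKM in wild type, 7.41 and 6.69 in 5xFAD EGFP, 8.13, 9.79, 10.8 and 8.03 with circRNA, and 7.76, 8.36, 7.20 and 7.31 in PKR KO. Wild type and 5xFAD EGFP overlapped (log2 change 0.13, SE 0.17, limma adjusted p = 0.701), and wild type replicate 3 was the lowest library. Mcm4, on chromosome 16, 15623897 to 15637400 (minus strand), was 2.39, 2.36 and 2.53 FPKM in wild type, 2.37 and 2.20 in 5xFAD EGFP, 2.90, 2.93, 3.47 and 2.89 with circRNA, and 2.09, 1.87, 2.10 and 2.04 in PKR KO. Wild type and 5xFAD EGFP again overlapped (log2 change -0.08, SE 0.10, limma adjusted p = 0.695). Mcm7 ranged from 2.43 to 3.90 FPKM and passed in no comparison. Pcna was 11.5, 9.70 and 8.02 FPKM in wild type, 14.0 and 13.6 in 5xFAD EGFP, 16.1, 15.5, 18.7 and 11.8 with circRNA, and 13.5, 13.3, 12.4 and 13.6 in PKR KO. All 5xFAD libraries were above wild type, and the log2 change in 5xFAD EGFP was 0.51, SE 0.17, limma adjusted p = 0.0856. It passed with median-ratio scaling alone among the other settings, and on leaving out circRNA replicate 4.

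The nucleotide synthesis genes gave no call in 5xFAD EGFP. Rrm1, the large subunit of ribonucleotide reductase, was 1.24, 1.24 and 1.09 FPKM in wild type, 1.52 and 1.31 in 5xFAD EGFP, 1.67, 1.70, 1.99 and 1.52 with circRNA, and 1.52, 1.41, 1.43 and 1.35 in PKR KO. The 5xFAD libraries were all above wild type (log2 change 0.23, SE 0.14, limma adjusted p = 0.337). Rrm2, its small subunit, ranged from 0.106 to 0.478 FPKM, and Tyms, thymidylate synthase, from 0.615 to 1.09. Neither passed in any comparison of the reported fit. Without wild type replicate 3, Rrm2 passed as higher in circRNA and in PKR KO against wild type. With a pseudocount of 1, Tyms passed as higher in circRNA against wild type.

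Between the circRNA vector and the EGFP vector in 5xFAD mice, with 4 against 2 libraries, no member passed. Over all 18291 genes limma called 0% as well, with 795 genes and 2 members, Mcm3 and Mcm4, at an unadjusted limma p under 0.05. The members' median log2 change was 0.16, beside 0.07 over all genes. Mcm4 had the smallest p: its circRNA libraries lay at 2.89 to 3.47 FPKM and its 5xFAD EGFP libraries at 2.20 and 2.37 (log2 change 0.40, SE 0.10, limma adjusted p = 0.860). All 7 replication genes had positive changes, from 0.15 to 0.40, and each stayed positive under both other scalings. For the marks of division the intervals included 0. The 95% interval of the log2 change was -0.11 to 0.70 for Mki67, -0.05 to 0.68 for Top2a and -0.21 to 0.73 for Cdk1. Ccnb2 had the largest positive change (log2 change 0.50, SE 0.23, limma adjusted p = 0.860) and Aurka the largest negative one (log2 change -0.42, SE 0.22, limma adjusted p = 0.860).

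The PKR KO group gave no member call against 5xFAD EGFP either. Again 0% of the 18291 genes passed limma's threshold, with 2062 genes and 3 members (Ccnb2, Cenpf and Mcm5) at an unadjusted limma p under 0.05. The members' median log2 change was 0.02, beside -0.02 over all genes, and 23 of 40 changes were positive. The largest positive changes were in Ccnb2 (log2 change 0.61, SE 0.23, limma adjusted p = 0.366), Cenpf (log2 change 0.53, SE 0.19, limma adjusted p = 0.338) and Ccnd3 (log2 change 0.52, SE 0.26, limma adjusted p = 0.474). The largest negative ones were in Mcm2 (log2 change -0.37, SE 0.19, limma adjusted p = 0.486), Mcm5 (log2 change -0.35, SE 0.16, limma adjusted p = 0.428) and Ccne1 (log2 change -0.31, SE 0.22, limma adjusted p = 0.601). Mcm2, Mcm4, Mcm5, Pcna, Ccnd1 and Cdk6, 6 of the 40, were lower in all 4 PKR KO libraries than in both 5xFAD EGFP libraries, an ordering found in 19% of all genes. In the other direction Ccnb2, Aurkb, Cenpe, Cenpf and Tpx2, 5 of the 40, were higher in all 4 PKR KO libraries, a share near the 12% of all genes with this ordering. The 95% intervals were -0.07 to 0.73 for Mki67, -0.12 to 0.61 for Top2a and -0.25 to 0.68 for Cdk1.

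**Figure D4:**
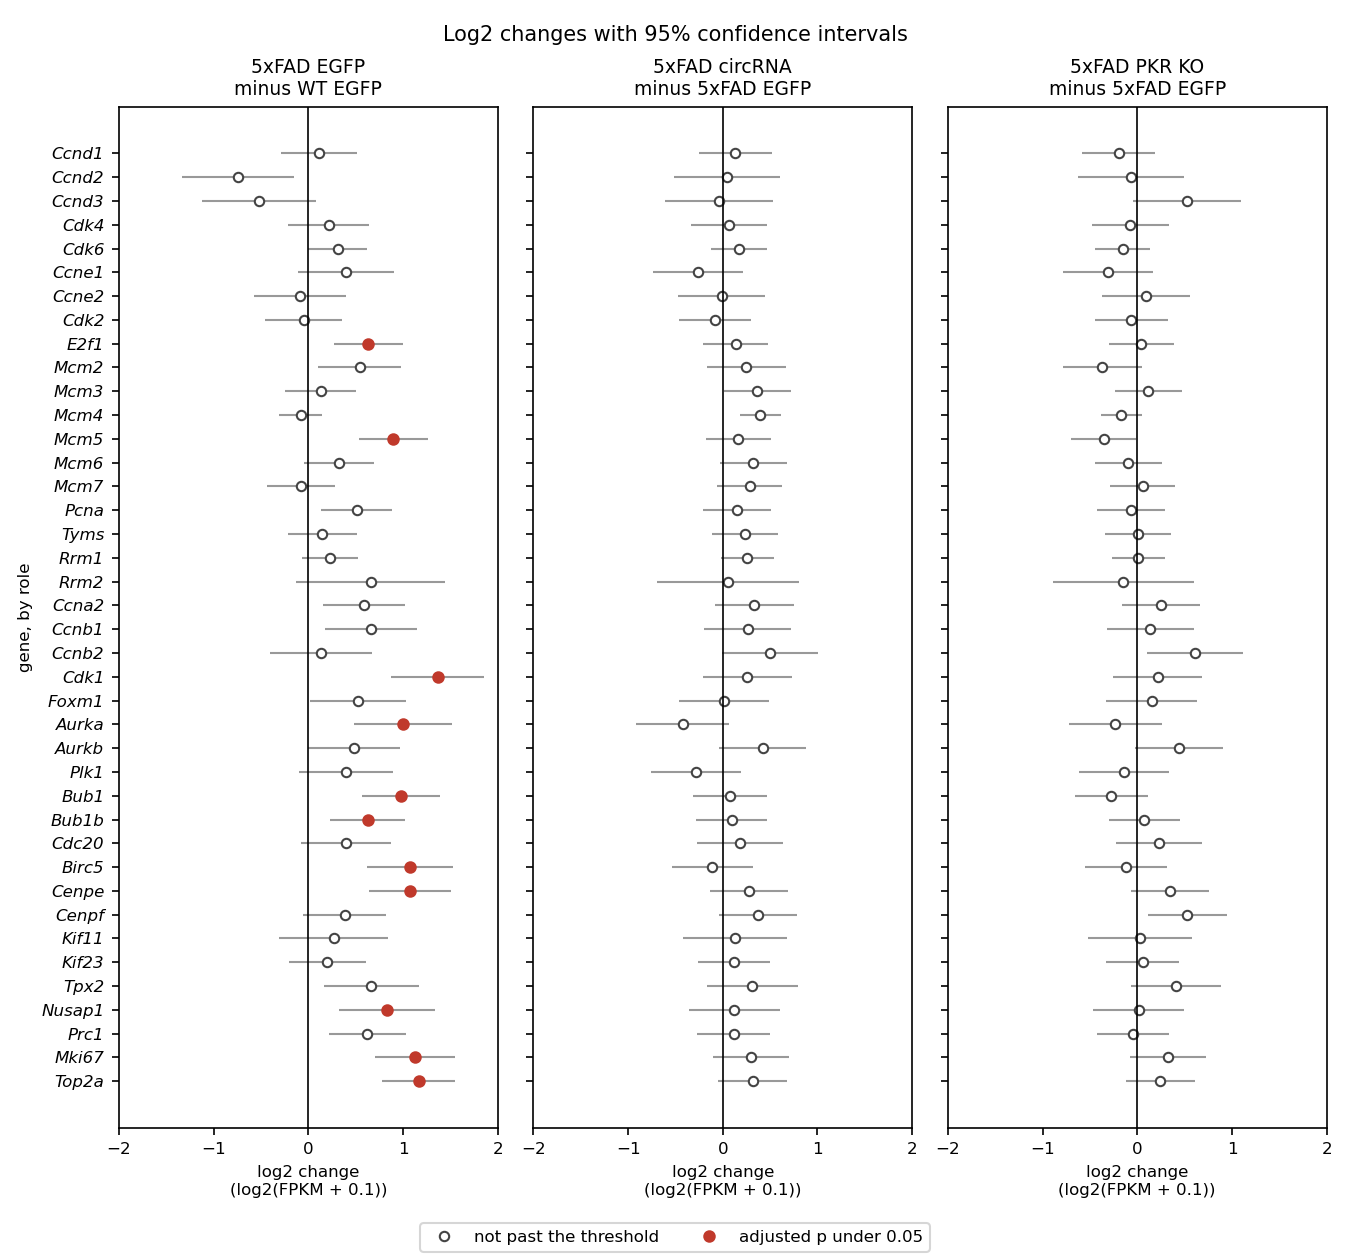
Log2 change of each member (points) with its 95% confidence interval (lines) in 3 comparisons, on the log2(FPKM + 0.1) scale; filled points passed a limma adjusted p of 0.05. The 11 filled points are all in the first panel, for 5xFAD EGFP against wild type, and in the other panels the intervals of all but 2 and 3 members include 0.

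Against wild type, most mitotic genes rose with circRNA and in PKR KO as well. These comparisons share the 3 wild type libraries with the one above, so they are given side by side and are not independent of it. With circRNA, 24 members rose and 0 fell (Ccnd2 fell under 5 of 7 other settings), where 11.3% of all genes were called higher and 7.65% lower. In PKR KO, 21 rose and 2, Ccnd2 and Mcm4, fell, where 11.8% of all genes were called higher and 19.8% lower. The median log2 change of the members was 0.64 with circRNA and 0.53 in PKR KO, beside -0.03 and -0.10 over all genes. Cdk1 again had one of the largest log2 changes, 1.63, SE 0.19, limma adjusted p = 0.000133 with circRNA and 1.58, SE 0.19, limma adjusted p = 0.000128 in PKR KO. The log2 change of Mki67 was 1.42, SE 0.16, limma adjusted p = 0.000117 with circRNA and 1.45, SE 0.16, limma adjusted p = 7.84e-05 in PKR KO, and that of Cenpe was 1.35, SE 0.17, limma adjusted p = 0.000202 with circRNA and 1.42, SE 0.17, limma adjusted p = 0.000111 in PKR KO. The sum over the 21 genes of G2/M, mitosis and proliferation marks was 5.81 to 7.04 FPKM in wild type, 11.1 and 12.2 in 5xFAD EGFP, 11.5 to 14.5 with circRNA and 12.1 to 16.5 in PKR KO. Every 5xFAD library was therefore above every wild type library in this sum, and the 3 groups of 5xFAD libraries overlapped.

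By role, most G2/M and mitotic genes passed in both groups. Of the 5 G2/M regulators, 3 rose with circRNA and 5 in PKR KO. Of the 7 mitotic kinases and checkpoint genes, 5 and 6 rose, and of the 7 kinetochore and spindle genes, 5 and 5. Of the 7 replication genes, 6 rose with circRNA (Mcm2, Mcm3, Mcm4, Mcm5, Mcm6 and Pcna; Mcm3 and Mcm4 not after rescaling to the same sum), while in PKR KO 2 rose (Mcm5 and Pcna, neither after that rescaling) and Mcm4 fell. Among the members called in these groups and not in 5xFAD EGFP were Ccna2 (log2 change 0.92, SE 0.17, limma adjusted p = 0.00289 with circRNA and 0.84, SE 0.17, limma adjusted p = 0.00332 in PKR KO) and Aurkb (log2 change 0.90, SE 0.19, limma adjusted p = 0.00607 and 0.92, SE 0.19, limma adjusted p = 0.00353). Whether their change differed between the 5xFAD groups was tested directly in the comparisons of these groups, where neither passed. The Mcm4 call in PKR KO (log2 change -0.25, SE 0.09, limma adjusted p = 0.0493) was lost on leaving out any 1 of the 7 libraries compared and under 4 of 7 other settings, the replicate block among them. Also lost were the Ccnd2 call without wild type replicate 1, wild type replicate 3 or PKR KO replicate 2, and the Pcna call on leaving out any of the 7 except wild type replicate 1. In PKR KO the Ccnb2 call was lost without wild type replicate 2, the Foxm1 call without wild type replicate 2 or PKR KO replicate 2, and the Cdc20 call without wild type replicate 1, PKR KO replicate 1 or PKR KO replicate 2. With circRNA, the Mcm3 call was lost without wild type replicate 3, circRNA replicate 2 or circRNA replicate 3, the Mcm4 call without wild type replicate 1, wild type replicate 2 or circRNA replicate 3, and the Cdc20 call on leaving out any of the 7 except circRNA replicate 4. Without wild type replicate 3, 23 members rose with circRNA, and 21 rose and 0 fell in PKR KO. Without PKR KO replicate 4, 20 rose and 1 fell in PKR KO. Rescaling every library to the same summed FPKM gave 19 higher and 2 lower members with circRNA (Cdc20, Cdk6, Mcm3, Mcm4 and Rrm1 no longer passed, and Ccnd2 and Ccnd3 were lower) and 16 and 2 in PKR KO (Cdc20, Foxm1, Mcm5, Pcna and Prc1 no longer passed), while the calls over all genes went from 2068 higher and 1400 lower to 1183 and 5988 with circRNA, and from 2154 and 3613 to 1390 and 7682 in PKR KO.

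In the direct comparison of circRNA with PKR KO, no mitotic gene passed and Mcm4 was the one member that did (1.61% of all genes were called higher and 0.886% lower). Its 4 circRNA libraries, at 2.89 to 3.47 FPKM, lay above its 4 PKR KO libraries, at 1.87 to 2.10, with no overlap. The log2 change was 0.56, SE 0.08, limma adjusted p = 0.00952, it passed under all 7 other settings and on leaving out each of the 8 libraries compared, and the ratio of means was 1.50. All 7 replication genes had positive changes, with a median of 0.42 beside 0.09 over all genes, and each stayed positive under both other scalings. Mcm2, Mcm5 and Mcm6 likewise did not overlap between the groups, an ordering found in 11.2% of all genes, but missed the threshold, with log2 changes of 0.62, SE 0.15, limma adjusted p = 0.0606, 0.52, SE 0.13, limma adjusted p = 0.0579 and 0.42, SE 0.13, limma adjusted p = 0.109. These orderings are of unscaled FPKM. Median-ratio scaling factors were 1.015 to 1.126 in the circRNA libraries and 0.9592 to 0.9996 in PKR KO, so this scaling narrows the gaps. Overlap after scaling was not tested. Mcm2 and Mcm5 passed among genes of a mean of at least 1 FPKM and with voom on recovered fragments. Without wild type replicate 3, whose spread enters the shared error, 4 members passed: Mcm2, Mcm4, Mcm5 and Cdk6. Without wild type replicate 1, Mcm4 and Cdk6 passed. The summed level of the 6 Mcm genes and Pcna, also unscaled, was 31.56 to 44.9 FPKM with circRNA and 28.7 to 31.54 in PKR KO, so the ranges nearly touched. Mcm3 and Pcna, the most abundant of these by FPKM, did not pass in this comparison. For Mki67 the log2 change was -0.03 with a 95% interval of -0.36 to 0.30, and for Cdk1 it was 0.05, with an interval of -0.34 to 0.43 and a negative sign under both other scalings.

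**Figure D5:**
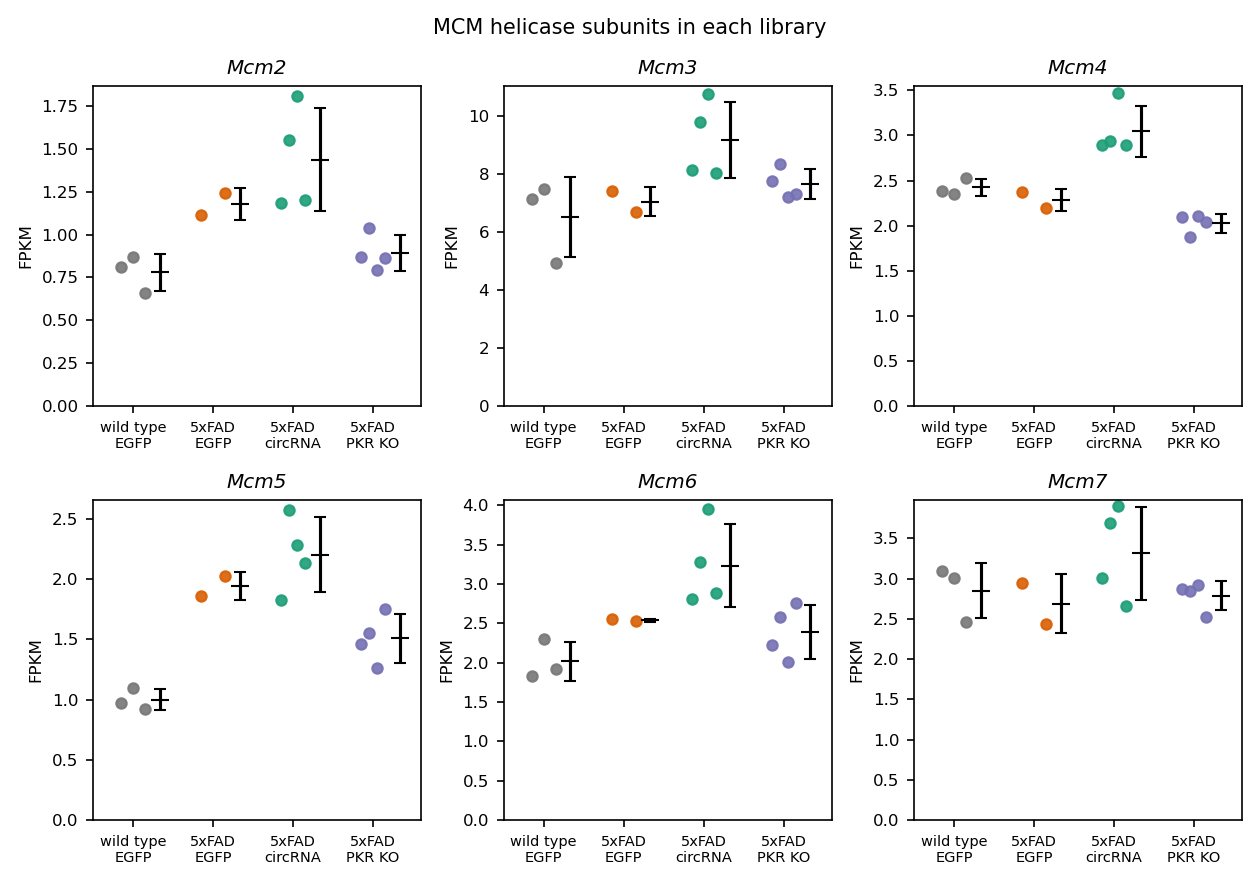
FPKM (linear axis from 0) of the 6 helicase genes in each library; points are libraries and bars are mean ± SD of the group. Mcm2, Mcm4, Mcm5 and Mcm6 are higher in all 4 circRNA libraries than in all 4 PKR KO libraries, and in Mcm4 wild type and 5xFAD EGFP lie between them.

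Another 98 genes of the cell cycle, taken from textbook lists of inhibitors, E2F and retinoblastoma family members, replication factors and mitotic factors, were read beside the members. In 5xFAD EGFP against wild type 14 of the 98 rose and 2 fell by the same limma test, where 5.05% of all genes were called higher and 5.19% lower, with a median log2 change of 0.22. Of 41 other mitosis genes, 8 rose and 1 fell. Hmmr, a spindle-associated protein, went from 0.0849 ± 0.000921 FPKM in wild type (SD, n = 3) to 0.300 ± 0.0209 (SD, n = 2) in 5xFAD EGFP (log2 change 1.11, SE 0.18, limma adjusted p = 0.00270). Esco2, a cohesin acetyltransferase, went from 0.0395 ± 0.0129 FPKM in wild type (SD, n = 3) to 0.139 ± 0.00924 (SD, n = 2) in 5xFAD EGFP (log2 change 0.78, SE 0.14, limma adjusted p = 0.00638), and Ncapg, a condensin subunit, from 0.0543 ± 0.00981 FPKM in wild type (SD, n = 3) to 0.162 ± 0.0547 (SD, n = 2) in 5xFAD EGFP (log2 change 0.75, SE 0.15, limma adjusted p = 0.0114). The wild type means of Hmmr, Esco2 and Ncapg lay under the pseudocount of 0.1 FPKM, which shrinks their log2 changes. Their ratios of means were 3.54, 3.51 and 2.99. The gene that fell was Ncaph, another condensin subunit, named after its values were seen (log2 change -0.76, SE 0.20, limma adjusted p = 0.0352). Of 33 other replication genes, 3 rose and 0 fell. They were Chaf1b, a chromatin assembly factor (log2 change 0.95, SE 0.23, limma adjusted p = 0.0265), Clspn, a replication checkpoint adaptor (log2 change 0.50, SE 0.14, limma adjusted p = 0.0425), and Uhrf1, a cofactor of maintenance DNA methylation (log2 change 0.74, SE 0.21, limma adjusted p = 0.0493). Hmmr passed on leaving out each of the 5 libraries; Esco2 was lost without 5xFAD EGFP replicate 2, Ncapg without replicate 1, and Chaf1b, Clspn, Uhrf1 and Ncaph without either and without 1 or more wild type libraries. Clspn and Uhrf1 were also lost under 3 of 6 other settings, and Chaf1b and Ncaph under 1.

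Of 7 inhibitors of the cyclin-dependent kinases, Cdkn1a, Cdkn2a and Cdkn2c rose in 5xFAD EGFP against wild type and none fell. Cdkn1a (p21), which blocks Cdk2 and Cdk1 complexes, was 2.93, 2.26 and 2.46 FPKM in wild type, 4.60 and 4.64 in 5xFAD EGFP, 4.07, 5.43, 4.80 and 4.22 with circRNA, and 9.69, 8.27, 10.6 and 7.47 in PKR KO. All 5xFAD libraries were above wild type, and the PKR KO libraries were above all others; the log2 changes were 0.84, SE 0.16, limma adjusted p = 0.00843 in 5xFAD EGFP and -0.94, SE 0.13, limma adjusted p = 0.00718 between PKR KO and circRNA, lower with circRNA. Cdkn2a, which encodes p16 and p19ARF, was 0.0542, 0.0537 and 0.169 FPKM in wild type, 0.431 and 0.513 in 5xFAD EGFP, 0.355, 0.678, 0.850 and 0.715 with circRNA, and 0.724, 1.04, 1.03 and 0.723 in PKR KO. Wild type values rested on 3 to 10 fragments, and no 5xFAD library reached down to them (log2 change 1.62, SE 0.33, limma adjusted p = 0.0121). Cdkn2c (p18), an inhibitor of Cdk4 and Cdk6, was 0.765, 0.586 and 0.760 FPKM in wild type, 1.09 and 1.31 in 5xFAD EGFP, 1.30, 1.50, 1.76 and 1.23 with circRNA, and 1.25, 1.31, 0.993 and 1.03 in PKR KO. Again the groups did not overlap (log2 change 0.70, SE 0.19, limma adjusted p = 0.0428). The other 4 did not pass in this comparison, and Cdkn1c and Cdkn2b, named after their values were seen, were lower in both 5xFAD EGFP libraries than in wild type. Cdkn1c (p57) was 8.54, 6.74 and 4.83 FPKM in wild type, 3.44 and 2.63 in 5xFAD EGFP, 4.33, 2.71, 4.46 and 6.53 with circRNA, and 3.65, 1.80, 3.57 and 2.19 in PKR KO. Its change in 5xFAD EGFP missed the threshold except after rescaling to the same sum (log2 change -1.09, SE 0.38, limma adjusted p = 0.0929), and that in PKR KO against wild type passed, though not without wild type replicate 1 (log2 change -1.25, SE 0.31, limma adjusted p = 0.0115). Cdkn2b (p15) was 0.807, 0.468 and 0.756 FPKM in wild type, 0.390 and 0.406 in 5xFAD EGFP, 0.237, 0.313, 0.685 and 0.227 with circRNA, and 0.698, 0.504, 0.682 and 0.387 in PKR KO, with overlap between wild type and the circRNA and PKR KO groups (log2 change in 5xFAD EGFP -0.61, SE 0.37, limma adjusted p = 0.351). The calls of Cdkn1a, Cdkn2a and Cdkn2c in 5xFAD EGFP were lost without either 5xFAD EGFP library, and that of Cdkn2c also without wild type replicate 1 or replicate 2 and under 3 of 7 other settings, while the circRNA against PKR KO call of Cdkn1a passed on leaving out each of the 8 libraries. Among 17 genes of the retinoblastoma, E2F and MuvB families, 0 rose and 1 fell, a share near the 5.19% of all genes called lower. E2f3 went from 6.49 ± 1.04 FPKM in wild type (SD, n = 3) to 4.31 ± 0.359 (SD, n = 2) in 5xFAD EGFP (log2 change -0.57, SE 0.12, limma adjusted p = 0.0142), a call lost without 5xFAD EGFP replicate 2, while the changes of E2f8 (log2 change 0.75, SE 0.25, limma adjusted p = 0.0867) and Rb1 (log2 change -0.17, SE 0.08, limma adjusted p = 0.229) missed the threshold. In the comparisons of the other 5xFAD groups with 5xFAD EGFP, 0 of the 98 genes passed limma's threshold, with 5 at an unadjusted limma p under 0.05 with circRNA and 4 in PKR KO. Against wild type, which these share, 35 of the 98 rose and 1 fell with circRNA, where 11.3% of all genes were called higher and 7.65% lower. In PKR KO 35 rose and 5 fell, where 11.8% were called higher and 19.8% lower.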

How the data were processed

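Total RNA from microglia was depleted of ribosomal RNA and sequenced from stranded libraries, per the labels' protocols. The authors deposited 1 table of FPKM values for 19737 genes in 13 libraries. Bowtie2 2.3.5, HISAT2 2.1.0, featureCounts 1.5.1 and build mm10 come from the submitters' processing notes; their roles, the strand setting and the annotation are not given in the sources used here.

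From these values, log2(FPKM + 0.1) of 18291 genes above 0 in at least 1 library was fitted with limma 3.58.1 in R 4.3.3. One model with 4 group means over all libraries (9 residual degrees of freedom) gave 6 comparisons, with Benjamini-Hochberg adjustment within each and a threshold of 0.05. Changes on this scale understate those of low genes, and the test was checked on simulated data. Fragments were recovered from the FPKM steps with GENCODE M21 gene lengths for 98.3% of genes; 90.7% of 47122 values under 0.3 FPKM came out whole within 0.02 fragments, against 4% by chance. Intervals cover 95%.

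The 40 members and all gene lists were chosen with earlier results of these data known. Members that passed in any comparison, or had the 3 largest positive or negative changes in any of the first 3, were given by library, with Ccnd1 and a few others added to complete a role; from each pathway list the 3 genes with the smallest adjusted p were named. Alternatives were other pseudocounts, a mean filter, other scalings, a replicate block, voom on recovered fragments and leaving out each library. One microglial marker of the list is not reported here and was left out of its sum.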

Additional observations from a re-analysis of the deposited data

Results flagged for a closer look

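In 5 of 80 groups of 4 libraries, 1 library lay far from the other 3 for its gene by Dixon's criterion, a share close to the 1 in 20 that chance gives. Ccnd1 was at 11.2 FPKM in PKR KO replicate 3 and at 9.80 to 9.94 in the other PKR KO libraries. Mcm4 was at 3.47 FPKM in circRNA replicate 3 and at 2.89 to 2.93 in the others of that group; the difference of Mcm4 between circRNA and PKR KO also passed without that library. Foxm1 was at 0.737 FPKM in PKR KO replicate 2, against 0.550 to 0.567, and Bub1b was at 0.926 in the same library, against 0.644 to 0.689. Birc5 was at 0.187 FPKM in circRNA replicate 1, against 0.322 to 0.342.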

How the results depend on the processing

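With genes of a mean of at least 1 FPKM alone, which keeps 15 members, 2 passed in 5xFAD EGFP against wild type, 10 with circRNA against wild type, 5 in PKR KO against wild type and 3 in circRNA against PKR KO (Mcm2, Mcm4 and Mcm5, as with voom); fewer members tested is part of that construction. Voom on recovered fragments gave 3 in circRNA against PKR KO and 8 in 5xFAD EGFP against wild type (without Bub1b, E2f1 and Nusap1), and a pseudocount of 0.02 gave 9 there (without Bub1b and Nusap1). Median-ratio scaling gave 13 there, adding Pcna and Prc1, and a pseudocount of 1 gave 11, with Prc1 in place of Nusap1. Leaving out 1 library in turn gave 2 to 12 members in 5xFAD EGFP against wild type and 1 to 4 in circRNA against PKR KO, and both comparisons with 5xFAD EGFP gave 0 members under every setting run. The same-sum scaling moved calls over all genes in circRNA against PKR KO from 294 higher and 162 lower to 237 and 258, median-ratio scaling to 205 and 565, the mean filter to 501 and 201 and the replicate block to 138 and 114; leaving out 1 library gave from 28 and 33 (without PKR KO replicate 2) to 841 and 321 (without wild type replicate 3). Counting error limits the 172 member values under 100 fragments.

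The labels share replicate numbers, but same-numbered libraries did not deviate together in every pair: correlations of their deviations ran from -0.421 to 0.674 for circRNA against wild type and from -0.0251 to 0.312 for 5xFAD EGFP against wild type. They were 0.273 and 0.369 for the 2 pairs of PKR KO against 5xFAD EGFP and 0.0126 and 0.203 for those of circRNA against 5xFAD EGFP, and in all 6 comparisons the mean over same-numbered pairs was above that over other pairs. With a replicate block, 7 members passed in 5xFAD EGFP against wild type (without Aurka, Bub1b, E2f1 and Nusap1), Mcm4 no longer passed in PKR KO against wild type, Ccnd2 passed as lower with circRNA against wild type, and 3 small changes crossed 0: Ccnd3 0.0604 and Ccne2 0.13 (circRNA against EGFP) and Pcna 0.0194 (PKR KO against EGFP).

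Other reversals were in changes that missed the threshold, and their cause was not tested. In 5xFAD EGFP against wild type, the same-sum scaling gave Mcm3 -0.0413 and Ccnb2 -0.0141. In circRNA against EGFP, median-ratio and same-sum scaling gave Ccnd2 -0.0521 and -0.0659, Foxm1 -0.0740 and -0.0859, and Bub1 -0.000550 and -0.0118, and the latter gave Bub1b -0.0100. In PKR KO against EGFP, same-sum scaling gave E2f1 -0.00766, Rrm1 -0.0435 and Nusap1 -0.0333. In circRNA against PKR KO the 2 scalings gave Cdk1 -0.0435 and -0.00606. Leaving out 1 library crossed 0 in these ranges: Ccne2 -0.36 to 0.18, Mcm3 -0.0541 to 0.24 and Ccnb2 -0.00429 to 0.23 in 5xFAD EGFP against wild type; Ccnd2 -0.23 to 0.32, Ccnd3 -0.27 to 0.19, Ccne2 -0.28 to 0.26, Foxm1 -0.10 to 0.12, Bub1 -0.11 to 0.27, Bub1b -0.0425 to 0.23, Birc5 -0.20 to 0.0400 and Nusap1 -0.0210 to 0.26 in circRNA against EGFP; Ccnd2 -0.34 to 0.21, Ccne2 -0.18 to 0.36, E2f1 -0.00603 to 0.0824, Rrm1 -0.0877 to 0.11, Bub1b -0.0616 to 0.21, Nusap1 -0.13 to 0.15 and Prc1 -0.16 to 0.0685 in PKR KO against EGFP; Mki67 -0.12 to 0.0786 and Cdk1 -0.0905 to 0.14 in circRNA against PKR KO.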

Other observations

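Histone genes of the chromosomal clusters, whose transcripts are made in bulk during DNA replication, were read as well. The search took H1, H2A and H2B symbols and older Hist1h symbols, which brought in Hist1h4m and Hist1h4n. Symbols of the H3c and H4c form were not searched, so any H3 and H4 genes listed under them were not read. These histone genes were chosen after the values of the 40 genes had been seen. Of 41 such genes, 17 rose and 0 fell in 5xFAD EGFP against wild type by limma, where 5.05% of all genes were called higher and 5.19% lower; their median log2 change was 0.74 beside -0.05 over all genes. H2ac10 was 2.71, 3.13 and 3.45 FPKM in wild type, 8.64 and 6.80 in 5xFAD EGFP, 9.45, 10.3, 12.2 and 11.0 with circRNA, and 8.19, 10.1, 7.62 and 9.28 in PKR KO. Every 5xFAD library was above every wild type library (log2 change 1.29, SE 0.15, limma adjusted p = 0.000372). H2ac11 was 1.59, 1.38 and 1.12 FPKM in wild type, 3.92 and 3.56 in 5xFAD EGFP, 4.58, 3.70, 4.38 and 3.08 with circRNA, and 3.68, 3.88, 3.63 and 3.73 in PKR KO, again with no overlap with wild type (log2 change 1.40, SE 0.17, limma adjusted p = 0.000372). H2bc15 was 9.25, 6.47 and 5.70 FPKM in wild type, 17.2 and 15.1 in 5xFAD EGFP, 18.9, 23.3, 19.2 and 18.0 with circRNA, and 17.7, 26.7, 16.0 and 20.9 in PKR KO, likewise without overlap (log2 change 1.20, SE 0.22, limma adjusted p = 0.00743). Summed over the 41 genes, wild type lay at 358 to 500 FPKM, 5xFAD EGFP at 477 and 679, circRNA at 543 to 821 and PKR KO at 714 to 786, so wild type and 5xFAD EGFP overlapped in the sum. With circRNA or PKR KO against 5xFAD EGFP 0 of the 41 passed limma's threshold, with 3 and 9 at an unadjusted limma p under 0.05, beside 795 and 2062 of the 18291 genes tested. Against wild type 31 rose in each, where 11.3% of all genes were called higher with circRNA and 11.8% in PKR KO. These genes have near-identical copies, so their single values are uncertain, and their dependence on the libraries left out was not tested.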
